A study of Mus musculus with 3 samples.

Results

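Type 2 vomeronasal receptor genes (Vmn2r) are a large family of mouse receptor genes, and their DNA methylation was read here in epididymal fat. The genes were chosen as protein-coding RefSeq genes on autosomes whose symbol is Vmn2r followed by digits. There were 122 such genes, of which 121 were read, among 20556 autosomal protein-coding genes read in all. The record of Vmn2r122 on chromosome 4 begins before 3 Mb, where no peak list has an autosomal peak, so it was not read. A gene's window was its record with 2000 bp on each side.

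Methylated DNA was captured with an antibody and sequenced (MeDIP-seq), and the submitters deposited a list of enriched regions, called peaks, for each of 3 libraries. The libraries came from epididymal adipose tissue of male C57BL/6J mice that were 6 weeks old at the start and 16 weeks old after 10 weeks on a diet. The FAD library is from a high-fat diet with 60% of energy from fat and folic acid at 20 μg/mL in the drinking water, the HFD library from that high-fat diet without folic acid, and the ND library from a normal diet with 10% of energy from fat. The number of animals behind each library, 1 or a pool, is not stated. With 1 library per diet, no difference could be set against a spread between replicates. The intervals given are 95% intervals that cover counting error only, exact Poisson for peak numbers and densities and Wilson for shares.

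The FAD list held 95501 peaks, the HFD list 135124 and the ND list 101532, and the median autosomal peak was 445 bp wide in FAD, 585 bp in HFD and 504 bp in ND. Read depth is unknown from these lists, and a longer list finds more genes. Over all autosomal protein-coding genes, 64.3% had a peak in FAD, 74.0% in HFD and 67.0% in ND, and shares of genes with a peak are to be read against these. A peak's score is the authors' own, begins at 50 in every list and has no stated scale. It ranks peaks within a list, and a score percentile gives that rank among all peaks of the list, sex chromosomes included. In whole tissue, fewer cells that carry methylation at a site and less methylation per cell cannot be told apart. Of the cell type marker genes, 4 of 8 adipocyte genes had a peak in FAD, 7 in HFD and 4 in ND. Likewise 3, 5 and 3 of 6 leukocyte genes and 1, 3 and 0 of 6 epididymis genes had a peak in FAD, HFD and ND. Peaks report methylated DNA and not expression, so these counts are no check of the tissue.

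Type 2 vomeronasal receptors belong to class C of the G protein-coupled receptors, with a large extracellular domain that binds the ligand. Sensory neurons in the basal layer of the vomeronasal organ use them, through the G protein subunit encoded by Gnao1 and the cation channel encoded by Trpc2, to detect peptides and proteins that other mice release. The genes sit in arrays of close relatives, and the vomeronasal organ is their known site of expression. The antibody used in MeDIP binds methylated cytosines, so the capture of a fragment depends on how many methylated CpG sites it carries.

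The promoter sequences are shown because capture depends on CpG content and because 1 of them held the highest-ranked peak of the family. RefSeq promoter windows of 300 bases, 250 before and 50 after a start, were given for 115 of the 121 genes, with 116 promoters in all. The sequences are from RefSeq on assembly GRCm38.p6, written 5′ to 3′ on the gene's strand, and capitals mark CpG sites. Vmn2r29 has a start at the upstream end of its record, with its promoter at chr7:7278240-7278539 on the minus strand, and an inner start 30961 bp further along the gene, with its promoter at chr7:7247279-7247578 on the minus strand. The promoter of Vmn2r35, the gene with the most peaks, lies at chr7:7819818-7820117 on the minus strand, that of Vmn2r26 at chr6:124024508-124024807 on the plus strand and that of Vmn2r116 at chr17:23384553-23384852 on the plus strand.
Vmn2r29 upstream start: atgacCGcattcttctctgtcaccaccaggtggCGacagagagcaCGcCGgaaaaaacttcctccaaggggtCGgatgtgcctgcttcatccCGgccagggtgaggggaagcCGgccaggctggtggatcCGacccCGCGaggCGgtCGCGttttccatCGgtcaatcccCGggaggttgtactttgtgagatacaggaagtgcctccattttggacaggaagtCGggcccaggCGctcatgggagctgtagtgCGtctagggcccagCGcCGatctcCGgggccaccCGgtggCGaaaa
Vmn2r29 inner start: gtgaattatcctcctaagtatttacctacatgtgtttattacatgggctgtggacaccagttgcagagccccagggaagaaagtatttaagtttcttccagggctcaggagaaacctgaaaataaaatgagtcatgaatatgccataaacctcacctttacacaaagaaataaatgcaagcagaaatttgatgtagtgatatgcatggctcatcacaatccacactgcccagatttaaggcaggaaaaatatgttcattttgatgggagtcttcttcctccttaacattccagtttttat
Vmn2r35: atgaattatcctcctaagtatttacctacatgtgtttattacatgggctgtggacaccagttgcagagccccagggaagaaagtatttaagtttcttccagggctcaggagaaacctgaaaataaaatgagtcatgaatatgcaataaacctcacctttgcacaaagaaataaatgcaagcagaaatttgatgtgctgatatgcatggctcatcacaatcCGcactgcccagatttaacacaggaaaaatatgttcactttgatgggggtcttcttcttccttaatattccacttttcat
Vmn2r26: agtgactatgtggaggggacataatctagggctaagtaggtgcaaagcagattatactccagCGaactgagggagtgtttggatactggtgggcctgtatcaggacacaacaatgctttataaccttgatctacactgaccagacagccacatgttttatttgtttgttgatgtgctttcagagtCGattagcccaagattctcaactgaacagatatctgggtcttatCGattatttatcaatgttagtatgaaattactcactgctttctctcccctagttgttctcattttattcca
Vmn2r116: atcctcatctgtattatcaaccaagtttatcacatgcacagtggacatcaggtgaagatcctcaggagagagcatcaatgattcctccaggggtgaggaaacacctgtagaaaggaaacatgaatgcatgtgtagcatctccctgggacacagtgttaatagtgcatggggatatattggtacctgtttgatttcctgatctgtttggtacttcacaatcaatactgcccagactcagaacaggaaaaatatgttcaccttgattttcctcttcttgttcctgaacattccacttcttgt

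The upstream promoter of Vmn2r29 stood apart from every other promoter of the family. It holds 23 CpG sites and 62.3% G and C, whereas the other 115 hold 4 or fewer CpG each. The inner promoter of Vmn2r29 holds none, and it is 95.3% identical to that of Vmn2r35. Across the 116 promoters the median was 1 CpG, against 14 CpG over 20084 promoters of autosomal protein-coding genes. No CpG at all was found in 33 promoters of the family, 28.4%, against 4.40% of all promoters. Receptors of the other vomeronasal family, Vmn1r, likewise had a median of 1 CpG over 205 promoters.

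**Figure D1:**
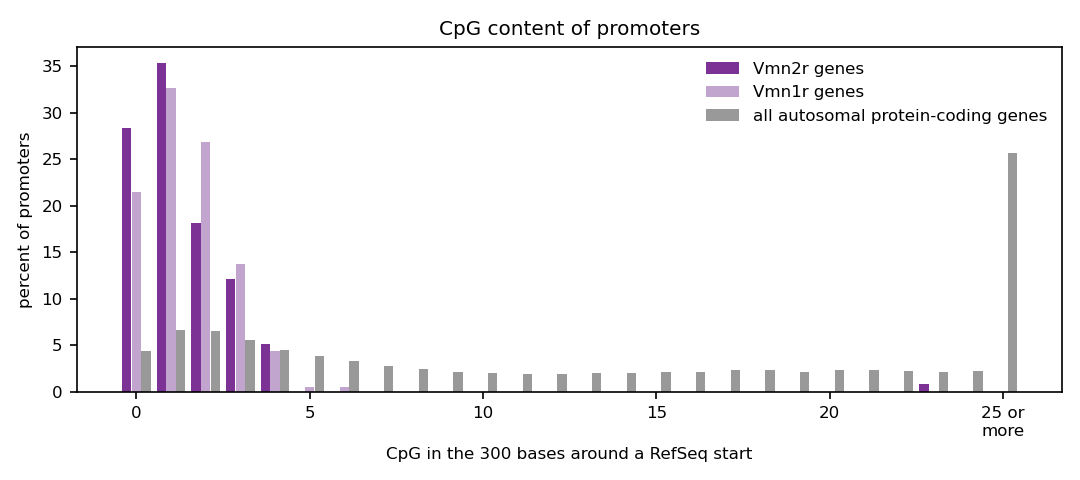
Share of promoters, in percent, by the number of CpG sites in the 300 bases around a RefSeq start, for 116 promoters of Vmn2r genes, 205 of Vmn1r genes and 20084 of all autosomal protein-coding genes. The Vmn2r promoters hold 4 CpG or fewer, apart from the upstream promoter of Vmn2r29 with 23 CpG.

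A peak overlapped a promoter window at that upstream start of Vmn2r29 only, in all 3 libraries. The region spanned chr7:7277538-7278698, and its peak had a score of 592 in FAD, 808 in HFD and 651 in ND. Averaged over the lists its score percentile was 99.3, the highest of the family's regions with a peak in all 3 libraries. The share of promoters with a peak was thus 0.862% in each library for the family (0.152 to 4.72%), against 1.99% in FAD, 3.23% in HFD and 2.42% in ND over all genes. Among promoters with 4 or fewer CpG, 0 of 115 in the family had a peak in any library, against 1.23% in FAD, 2.90% in HFD and 1.85% in ND of 5526 such promoters over all genes. At these CpG numbers the absence of a peak gives no methylation level. Measured to the midpoint of the joined region, the nearest peaks before other starts lay 1758 bp before Vmn2r102 and 1770 bp before Vmn2r82. Next by this measure were those 1870 bp before Vmn2r44 and 2073 bp before Vmn2r26.

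**Figure D2:**
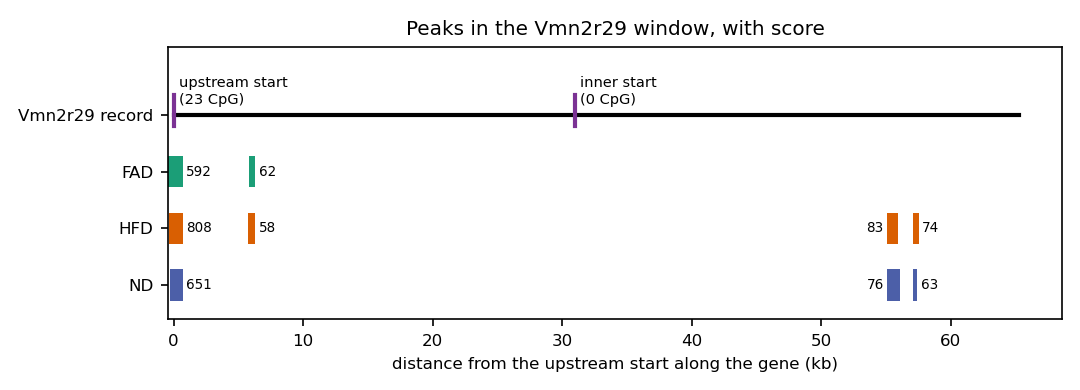
Peaks in the Vmn2r29 window as bars along the distance from the upstream start, in kb, for FAD, HFD and ND, with each peak's score beside it and both RefSeq starts marked on the record. All 3 libraries have their highest-scoring peak over the upstream start and none over the inner start.

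The remaining peaks of Vmn2r29 lay inside the record and scored low. Near the upstream end a second region had a score of 62.0 in FAD and 57.5 in HFD, with no peak in ND. At the far end, one region scored 83.0 in HFD and 76.5 in ND and its neighbour 73.9 in HFD and 63.4 in ND, and neither had a peak in FAD.

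Over the whole family, the windows cover 3.67 Mb after overlaps were merged and held 73 peaks in FAD (57.2 to 91.8), 97 in HFD (78.7 to 118) and 66 in ND (51.0 to 84.0). In density this was 19.9 peaks per Mb in FAD (15.6 to 25.0), 26.5 in HFD (21.5 to 32.3) and 18.0 in ND (13.9 to 22.9). All autosomal protein-coding genes had 42.7 peaks per Mb in FAD, 64.1 in HFD and 46.4 in ND. The family's density was 0.466 of the density over all genes in FAD, 0.413 in HFD and 0.388 in ND. Peaks covered 1.23% of the family's windows in FAD, 1.84% in HFD and 1.28% in ND, against 2.02%, 4.02% and 2.50% over all genes. In every library the Vmn2r windows therefore held fewer peaks per Mb and a smaller covered share than gene windows at large.

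At least 1 peak was found in 45 of the 121 genes in FAD, 37.2% (29.1 to 46.1%), where 64.3% of all genes had one. In HFD it was 57 genes, 47.1% (38.4 to 56.0%), against 74.0% of all genes. In ND it was 39 genes, 32.2% (24.6 to 41.0%), against 67.0% of all genes. Among genes of like length, the 3863 autosomal genes with records between the quartiles of the family's lengths (16.9 to 33.4 kb), 73.0% had a peak in FAD, 85.3% in HFD and 76.8% in ND. A peak in all 3 libraries was found in 33 Vmn2r genes, 27.3%, against 59.7% of all genes. No peak in any library was found in 55 Vmn2r genes, 45.5%, against 23.2% of all genes.

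**Figure D3:**
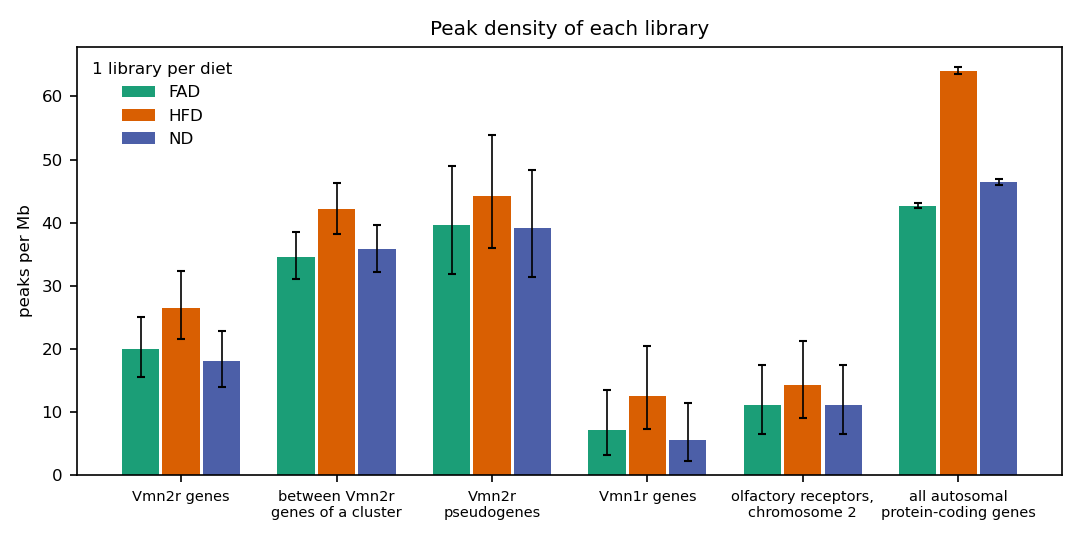
Peaks per Mb of merged windows in FAD, HFD and ND for Vmn2r genes, the stretches between Vmn2r genes of the same cluster, Vmn2r pseudogenes, Vmn1r genes, olfactory receptor genes of chromosome 2 and all autosomal protein-coding genes, with exact Poisson 95% intervals. Vmn2r genes lie at 19.9, 26.5 and 18.0 peaks per Mb, below all genes and above Vmn1r genes in each library.

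The other large receptor families also held few peaks. Vmn1r genes, 228 in number, had a peak in 9 genes in FAD (3.95%), 11 in HFD (4.82%) and 7 in ND (3.07%), with 7.11 (3.25 to 13.5), 12.6 (7.22 to 20.5) and 5.53 (2.22 to 11.4) peaks per Mb. Olfactory receptor genes of chromosome 2, 286 in number, had a peak in 18 genes in FAD (6.29%), 22 in HFD (7.69%) and 19 in ND (6.64%), with 11.1 (6.57 to 17.5), 14.2 (8.98 to 21.3) and 11.1 (6.57 to 17.5) peaks per Mb. The intervals of Vmn2r and Vmn1r densities did not overlap in any library, and Vmn2r lay higher. Those of Vmn2r and the olfactory receptors overlapped in FAD and ND and did not in HFD. Both comparison families have short records, so more of their windows is flank. The 41 shortest Vmn2r genes had 8.19 peaks per Mb in FAD, 13.7 in HFD and 10.9 in ND, inside the Vmn1r intervals. The part of record length in the difference between the families was not tested.

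The DNA between Vmn2r genes was not as poor in peaks. Stretches between neighbouring Vmn2r windows in the 12 clusters with more than 1 gene cover 9.93 Mb and held 34.6 peaks per Mb in FAD (31.1 to 38.5), 42.1 in HFD (38.2 to 46.3) and 35.8 in ND (32.1 to 39.7). In each library this interval lay wholly above that of the Vmn2r windows.

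Of the peaks that the family did have, a larger share was strong and wide than in gene windows at large. The median score percentile of Vmn2r peaks was 54.8 in FAD, 48.7 in HFD and 66.7 in ND, against 48.2, 49.5 and 47.5 for all gene windows. A score percentile of 90 or more was found for 12 of 73 peaks in FAD, 16.4% (9.66 to 26.6%), 15 of 97 in HFD, 15.5% (9.60 to 24.0%), and 14 of 66 in ND, 21.2% (13.1 to 32.5%). For all gene windows the share was 7.53% in FAD, 8.56% in HFD and 7.36% in ND, below each of these intervals. A width of 1000 bp or more was found for 13.7% of Vmn2r peaks in FAD, 17.5% in HFD and 21.2% in ND, against 3.08%, 7.68% and 4.98% for all gene windows. The higher share of strong peaks was not particular to Vmn2r. A score percentile of 90 or more was found for 22.2% of Vmn1r peaks in FAD, 12.5% in HFD and 42.9% in ND, from 2, 2 and 3 peaks. For the olfactory receptors of chromosome 2 it was 11.1%, 13.0% and 16.7%, from 2, 3 and 3 peaks.

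Regions were ranked by mean score percentile only among the 48 with a peak in all 3 libraries, so their presence in each was set by the ranking. After Vmn2r29, the highest mean score percentiles belonged to regions in Vmn2r38, Vmn2r82, Vmn2r60 and Vmn2r87. In Vmn2r38 the peak scored 452 in FAD, 504 in HFD and 646 in ND, at chr7:9081112-9083248. In Vmn2r60 the scores were 518 in FAD, 453 in HFD and 572 in ND, at chr7:42170188-42172406. In Vmn2r87 they were 497 in FAD, 571 in HFD and 447 in ND, at chr10:130485498-130487657. These 3 regions lie inside the record. The Vmn2r82 region lies in the flank before the start, at chr10:79354297-79355346, with 457 in FAD, 569 in HFD and 503 in ND.

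The most peaks were found in Vmn2r35, with 6 in FAD, 6 in HFD and 7 in ND along a record of 33.7 kb. They formed 5 regions, each present in all 3 libraries, with a highest score of 394 in FAD, 338 in HFD and 371 in ND. Vmn2r97 had 4 peaks in each library, and Vmn2r22 had 4 in FAD, 4 in HFD and 3 in ND. Vmn2r21 had 3, 5 and 2 peaks in FAD, HFD and ND, and Vmn2r91 had 4, 2 and 4. These 5 genes lie on chromosomes 6, 7 and 17. Without Vmn2r35, the family's density was 18.5 peaks per Mb in FAD, 25.1 in HFD and 16.3 in ND.

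**Figure D4:**
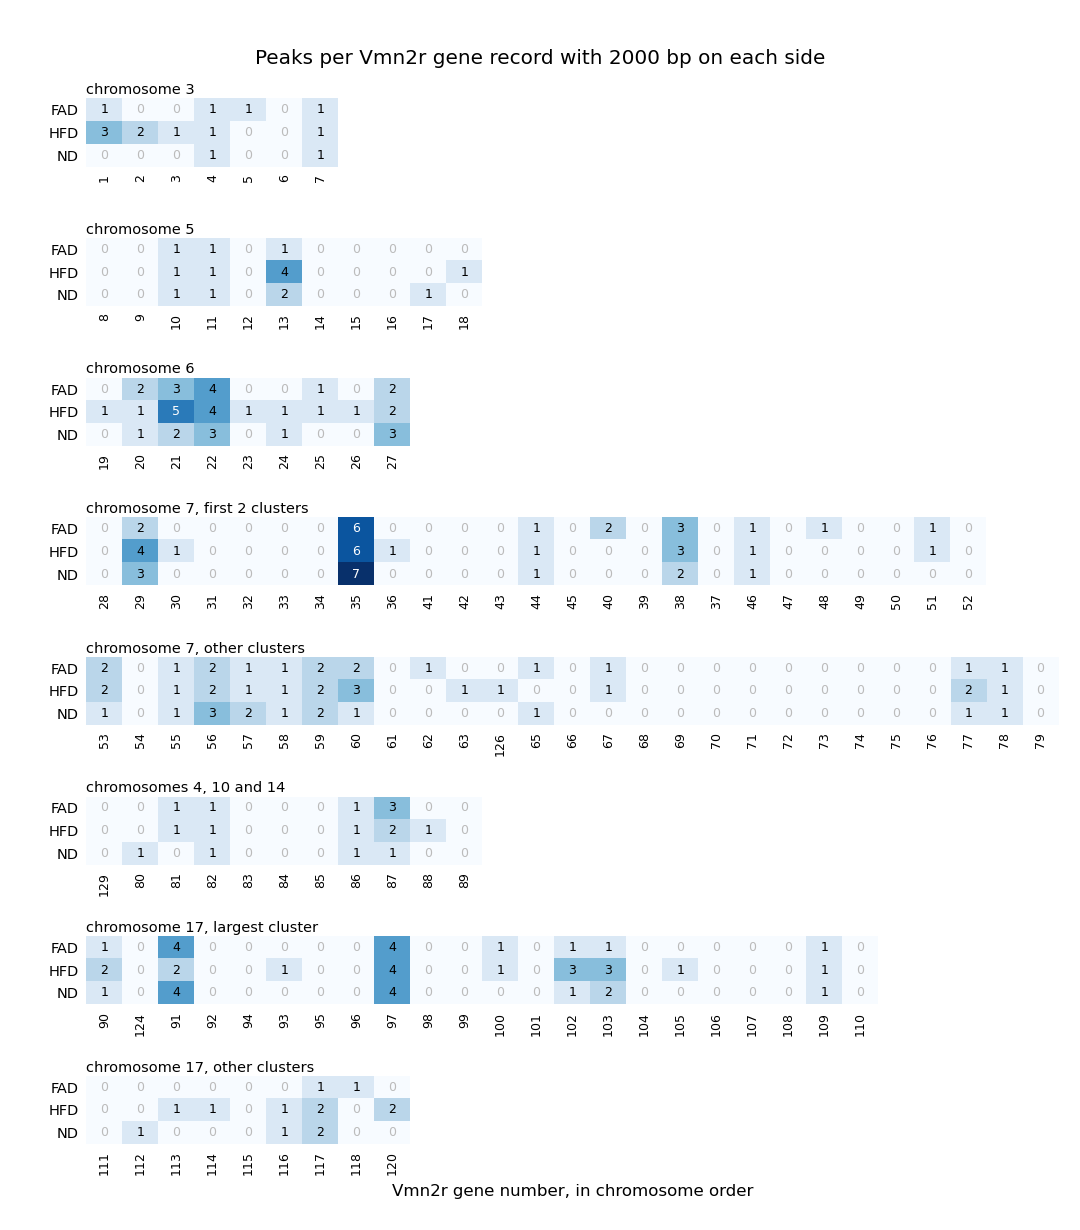
Number of peaks in each of the 121 Vmn2r windows in FAD, HFD and ND, in chromosome order, with darker cells for more peaks. The count reaches 6, 6 and 7 in Vmn2r35, chromosome 6 has no gene without a peak, and 55 genes are at 0 in every library.

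Long genes held most of the peaks. No peak in any library was found in 31 of the 41 shortest genes (8.40 to 18.1 kb), 16 of the 40 middle ones (18.4 to 29.3 kb) and 8 of the 40 longest (30.2 to 143 kb). The density was 8.19 peaks per Mb in FAD, 13.7 in HFD and 10.9 in ND in the shortest group, 18.5, 21.2 and 8.83 in the middle group, and 25.5, 35.0 and 26.7 in the longest. The longest group was the densest in each library, and in ND the middle group lay below the shortest. The longest genes without any peak were Vmn2r94, Vmn2r79 and Vmn2r61.

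Within records, more peaks lay towards the 3′ end than towards the start, as over all genes. Of the peaks inside records with a known strand, 45.8% lay in the last of 3 equal stretches of the record in FAD (33.7 to 58.3%), 41.5% in HFD (31.4 to 52.3%) and 51.8% in ND (39.0 to 64.3%). All genes had 39.9% there in FAD, 39.2% in HFD and 40.3% in ND, which lie inside these intervals. The first of these stretches held 20.3% of Vmn2r peaks in FAD (12.0 to 32.3%), 22.0% in HFD (14.4 to 32.1%) and 21.4% in ND (12.7 to 33.8%). All genes had 27.6%, 28.3% and 27.3% there, which lie inside these intervals too.

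The genes fall into 17 clusters on 8 chromosomes, where a gap of more than 1 Mb parts clusters, and the clusters differed in peak density. Among clusters of 7 or more genes, that of chromosome 6, from Vmn2r19 to Vmn2r27, was the densest in each library, with 33.0 peaks per Mb in FAD (17.1 to 57.7), 46.8 in HFD (27.3 to 74.9) and 27.5 in ND (13.2 to 50.6). Every one of its 9 genes had a peak in at least 1 library. The chromosome 7 cluster from Vmn2r65 to Vmn2r79 had 11.3 peaks per Mb in FAD (3.08 to 28.9), 11.3 in HFD (3.08 to 28.9) and 8.48 in ND (1.75 to 24.8), and 11 of its 15 genes had none in any library. The intervals of these clusters overlapped in every library. No peak was found in 14 of 24 genes of the cluster from Vmn2r29 to Vmn2r52 and in 13 of 22 genes from Vmn2r90 to Vmn2r110. The single genes Vmn2r28 on chromosome 7 and Vmn2r129 on chromosome 4 had none.

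Close relatives share sequence, and the handling of reads that match several places is not stated, so a peak in 1 copy may hold reads of another. The promoter was used as the measure of likeness. The median identity of a gene's promoter to that of its nearest relative was 91.3% over 115 genes (50.7 to 100%), and 8 were identical to another. Genes with an identity of 95% or more, 36 in number, had 28.7 peaks per Mb in FAD (19.5 to 40.7), 33.3 in HFD (23.3 to 46.1) and 29.6 in ND (20.3 to 41.8). The 20 genes under 80% had 9.95 in FAD (4.0 to 20.5), 18.5 in HFD (9.83 to 31.6) and 9.95 in ND (4.0 to 20.5). The intervals overlapped in each library. Without Vmn2r35 the closest relatives had 24.0 peaks per Mb in FAD, 28.8 in HFD and 24.0 in ND. The part of shared reads in these values was not tested.

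Vmn2r1 to Vmn2r7 on chromosome 3 form a subfamily with broad expression: its receptors are made together with other type 2 receptors, of which a neuron usually makes few. As a cluster they held 4 peaks in FAD, 6 in HFD and 2 in ND. Vmn2r4 had a peak with a score of 60.3 in FAD, 193 in HFD and 191 in ND, and Vmn2r7 one of 65.3 in FAD, 157 in HFD and 140 in ND. Vmn2r1, whose record of 143 kb is the longest and contains that of Vmn2r2, had 1 peak in FAD, 3 in HFD and none in ND, all in different regions. Of its HFD peaks, 2 lie in the Vmn2r2 window as well, among them the highest, with a score of 107, and Vmn2r2 had no other peak in any library. Vmn2r3 had a peak with a score of 57.4 in HFD only, Vmn2r5 one of 65.9 in FAD only, and Vmn2r6 had none. The peaks shared by all libraries in this subfamily were thus those of Vmn2r4 and Vmn2r7.

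Other receptors with a described ligand or role had 0 to 2 peaks in a library. Low numbers were usual in the family: of 121 genes, 15 had 2 or more peaks in FAD, 22 in HFD and 14 in ND. Vmn2r116, the receptor of the tear peptide ESP1, had a peak with a score of 127 in HFD and 66.5 in ND at chr17:23389306-23389662, inside the record, and none in FAD. Vmn2r26, which responds to peptides that bind major histocompatibility complex (MHC) molecules, had a peak with a score of 90.4 in HFD only, in the flank before its start. Vmn2r88, a receptor of hemoglobin, had a peak with a score of 50.8 in HFD only, close to the lowest score the lists hold. Vmn2r53, implicated in aggression between males, had 2 peaks in FAD, 2 in HFD and 1 in ND, with highest scores of 74.0 in FAD, 134 in HFD and 104 in ND.

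The first comparison asks what folic acid added to the high-fat diet, FAD against HFD. FAD had a peak where HFD had none in 6 Vmn2r genes, 4.96%, against 1.39% of all genes. These were Vmn2r62 with a score of 104, Vmn2r48 with 73.1, Vmn2r40 with 66.5, Vmn2r5, Vmn2r65 with 64.8 and Vmn2r118 with 64.1. The reverse, a peak in HFD and none in FAD, was found in 18 genes, 14.9% (9.62 to 22.3%), against 11.1% of all genes. Highest among them were Vmn2r24 with 168, Vmn2r116 with 127, Vmn2r2 with 107 and Vmn2r18 with 92.9. Most of these calls rest on a single peak, 5 of the 6 and 16 of the 18 genes. More peaks in FAD than in HFD were counted in 9 genes, 7.44%, against 6.10% of all genes, and fewer in 28, 23.1%, against 48.0% of all genes, with the widest gaps at 2 peaks in Vmn2r40 and Vmn2r91 on the FAD side and at 3 in Vmn2r13 on the HFD side. The ratio of peak numbers, FAD over HFD, was 0.753 in the Vmn2r windows and 0.695 over the autosomal lists, and FAD gave 42.9% of the peaks of both libraries (35.7 to 50.5%), against 41.0% over the lists. When each list was shortened to its highest 95501 scores, the counts were 9 genes with a FAD peak but no HFD peak (7.44%, against 3.77% of all genes), and 8 for the reverse (6.61%, against 6.85%).

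The second comparison asks what the high-fat diet changed, HFD against ND. A peak in HFD and none in ND was found in 22 Vmn2r genes, 18.2% (12.3 to 26.0%), against 8.94% of all genes. Highest among them were Vmn2r25 with a score of 158, Vmn2r1 and Vmn2r2 with the 107 of their shared peak, and Vmn2r100 with 98.2. The reverse was found in 4 genes, 3.31% (1.29 to 8.19%), against 1.88% of all genes, namely Vmn2r80 with a score of 77.0, Vmn2r65 with 74.2, Vmn2r17 with 73.9 and Vmn2r112 with 67.7. The Vmn2r112 peak covers only 35 bp of the window, in the flank after the gene's end, and an HFD peak lies 1421 bp from it. A single peak carried the call in 19 of the 22 genes and in 4 of the 4. More peaks in HFD than in ND were counted in 34 genes, 28.1%, against 43.6% of all genes, and fewer in 9, 7.44%, against 7.88% of all genes, with the widest gap at 3 in Vmn2r1 and Vmn2r21. The ratio of peak numbers, HFD over ND, was 1.47 in the Vmn2r windows and 1.35 over the lists, and HFD gave 59.5% of the peaks of both libraries (51.8 to 66.7%), against 57.5% over the lists. In lists of equal length, 9 genes (7.44%, against 5.82% of all genes) had a peak in HFD and none in ND. Shortening takes away the lowest scores, mainly from the HFD list, so a lower count can follow by construction, and its cause was not tested.

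The third comparison sets FAD against ND, whose lists are closer in length. A peak in FAD and none in ND was found in 11 Vmn2r genes, 9.09% (5.15 to 15.5%), against 4.12% of all genes. Highest were Vmn2r67 with a score of 128, Vmn2r51 with 106, Vmn2r25 with 105 and Vmn2r62 with 104. The Vmn2r67 peak lies at the edge of the window and overlaps an ND peak just outside it. A peak in ND and none in FAD was found in 5 genes, 4.13% (1.78 to 9.31%), against 6.81% of all genes, namely Vmn2r24 with 94.3, Vmn2r80, Vmn2r17, Vmn2r112 and Vmn2r116. The Vmn2r112 peak again lies at the window's edge, and a FAD peak lies 1255 bp from it. More peaks in FAD than in ND were counted in 18 genes, 14.9%, against 17.3% of all genes, and fewer in 13, 10.7%, against 27.5% of all genes. The ratio of peak numbers, FAD over ND, was 1.11 in the Vmn2r windows and 0.941 over the lists. FAD gave 52.5% of the peaks of both libraries (44.3 to 60.6%), an interval that holds the 48.5% of the lists. In lists of equal length the counts remained 11 (9.09%, against 4.60% of all genes) and 5 (4.13%, against 6.28%).

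All 3 comparisons share libraries, so their counts are not independent. The highest score in a gene with a peak in only one library of a pair had a median between 66.2 and 74.0 over the 6 directions and reached 168. Overlapping peaks of the 3 libraries were joined into 115 regions, of which 48 held a peak in all 3 libraries, 41.7% (33.1 to 50.9%), against 39.1% of 78774 regions in the windows of all autosomal protein-coding genes. In those 48 the median score was 164 in FAD, 187 in HFD and 186 in ND. The 34 regions found in HFD only were 29.6% (22.0 to 38.5%), against 24.7%, and scored between 50.8 and 118 with a median of 62.7. The 11 found in FAD only were 9.57% (5.43 to 16.3%), against 5.79%, with a median of 64.8, and the 7 found in ND only were 6.09% (2.98 to 12.0%), against 7.39%, with a median of 67.7. Regions found in 1 library reached a score of 104 in FAD, 118 in HFD and 77.0 in ND.

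**Figure D5:**
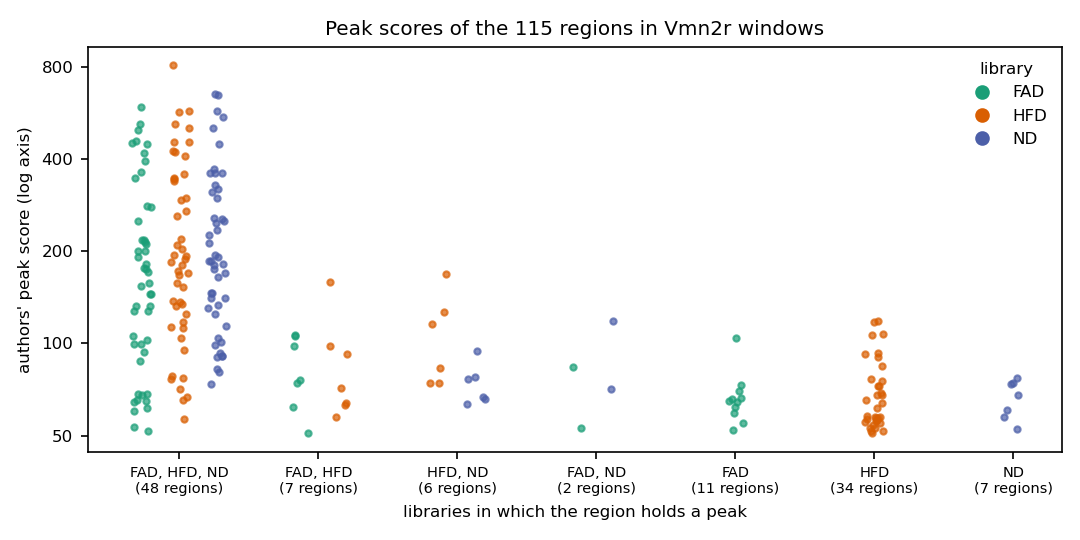
Authors' peak score, on a log axis, of each of the 115 regions in Vmn2r windows, by the libraries in which the region holds a peak, with 1 point per library. Regions with a peak in FAD, HFD and ND reach scores of 592, 808 and 651, and regions found in 1 library stay at or below 118.

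Seen per peak, the overlap between libraries was close to that of the whole lists. Of the Vmn2r peaks of FAD, 82.2% overlapped a peak of HFD and 74.0% one of ND, against 85.0% and 74.1% over all autosomal peaks. Of those of HFD, 57.7% overlapped a peak of FAD and 57.7% one of ND, against 58.0% and 61.2%. Of those of ND, 77.3% overlapped a peak of FAD and 86.4% one of HFD, against 69.2% and 84.0%. In the 48 regions held in common, the score percentile of FAD was higher than that of HFD in 18 regions and lower in 30, with a median difference of -1.50 (-69.0 to 52.1). That of HFD was higher than that of ND in 23 and lower in 25, with a median difference of -0.550 (-57.8 to 37.9). That of FAD was higher than that of ND in 20 and lower in 28, with a median difference of -1.80 (-67.2 to 29.7).

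Further gene lists were read in the same way, and not all of their members work with type 2 receptors. Of 12 genes listed under vomeronasal signalling, 10 had a peak in FAD, 83.3% (55.2 to 95.3%), 11 in HFD, 91.7% (64.6 to 98.5%), and 10 in ND, 83.3%. The shares over all genes, 64.3% in FAD, 74.0% in HFD and 67.0% in ND, lie inside these intervals. Trpc2, the channel of these neurons, had 3 peaks in FAD, 2 in HFD and 3 in ND, and Gnao1, their G protein subunit, had 7 in FAD, 10 in HFD and 8 in ND over 159 kb. Among 5 other receptors of class C, 4 had a peak in FAD, 4 in HFD and 3 in ND, with 5, 7 and 5 peaks in Casr, the calcium-sensing receptor, and none in Gprc6a. The 9 H2-Mv genes, MHC class I genes that are expressed together with type 2 receptors, and the 7 formyl peptide receptor genes had no peak in any library, which allows a share of up to 29.9% and 35.4% by the Wilson limit. Their records are short, and 0 peaks in the H2-Mv windows allow up to 57 per Mb by the exact Poisson limit, which lies above the density over all genes in FAD and ND and below the 64.1 of HFD.

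Of the ligands, 15 genes of the ESP family of exocrine peptides had a peak in 2 genes in each library, 13.3% (3.74 to 37.9%), against 64.3% of all genes in FAD, 74.0% in HFD and 67.0% in ND. The density of these peaks was 14.8 per Mb, with an interval of 1.79 to 53.4 that holds the density over all genes in FAD and ND. Esp5 scored 528 in FAD, 510.2 in HFD and 538 in ND, and Esp8 445 in FAD, 478 in HFD and 390.5 in ND, while Esp1, the ligand of Vmn2r116, had none. Of 22 genes of major urinary proteins, 2 had a peak in FAD, 9.09% (2.53 to 27.8%), 3 in HFD, 13.6% (4.75 to 33.3%), and 4 in ND, 18.2% (7.31 to 38.5%). In ND the interval of their density, 25.4 peaks per Mb (9.33 to 55.3), holds the 46.4 over all genes. Mup21 had a peak with a score of 192 in FAD, 226 in HFD and 161 in ND, and Mup20, the male urinary pheromone darcin, had none in FAD, 1 in HFD and 2 in ND.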

How the data were processed

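MeDIP-seq of epididymal fat was analysed from 3 deposited peak lists, 1 library per diet, grouped by the labels. Peaks are named after the MACS caller in the files, and each deposited peak has the authors' score. The build is mm10 per the submitters' processing notes; aligner, caller version, settings, control, depth and treatment of duplicates are not stated there or in the labels.

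Gene records and promoters came from RefSeq tables of GRCm38.p6, the assembly of mm10. Windows were records with 2000 bp on each side, and 1 bp of overlap counted. Alternatives were no flank, a flank of 5000 bp, the 50% of peaks with the highest score, lists of equal length, peak midpoints, joining within 500 bp, a reciprocal overlap of 50%, absence over 5000 bp around a window, only genes whose window overlaps no other Vmn2r window, and, chosen after seeing the data, genes of like length, leaving out Vmn2r35 and leaving out 3 pseudogenes. Exact Poisson and Wilson 95% intervals were used, and no test between diets was possible. The planned protein identity was replaced by promoter identity, since protein sequences were not used here. Genes and lists were chosen with earlier results of these data known. Genes were named by a rule that selects 56, of which some appear only in counts and in the plot of peaks per gene: those with the most peaks, the highest mean score percentile, the highest score per pattern of presence, the largest differences in peak number, the longest without a peak, a known role, or the end of a cluster. Vmn2r44 and Vmn2r102 were added after their values were seen, for the distance of a peak from their starts. The overlap code gave the peak numbers of bedtools in all 61668 gene windows compared and found 255 planted peaks in 120 windows. Tools were bedtools 2.31.1, edlib 1.3.9, matplotlib 3.10.9, and numpy 2.4.6, scipy 1.17.1 and pandas 2.3.3 under Python 3.11.15.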

Additional observations from a re-analysis of the deposited data

How the results depend on the processing

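Of 135 alternative values, 28 moved, counts by more than 1.5 times and other values past the 95% counting interval of the value reported. A reversal was defined only for density and covered share, as ratios to all genes, and 0 reversed. Counts of genes with a peak in only 1 library of a pair had no such label. Their standing against all genes did change in places, as given below. Counts could change within the bound of 1.5 times, so that genes with a peak in FAD numbered from 30 to 59, against the 45 reported. No paired analysis was possible because there is 1 library per diet, and for the same reason no library could be left out. The limits are those of the lists: a missing peak can follow from depth, which is unknown, and scores share no stated scale. With the 50% of peaks of highest score, the Vmn2r windows held 41 peaks in FAD, 48 in HFD and 40 in ND, 35 genes had a peak in HFD, and in ND the ratio to all genes was 0.496 for density and 0.674 for the covered share. Under that setting 10 genes had a peak in HFD and none in FAD (8.26%, against 13.4% of all genes). A peak in HFD and none in ND was found in 8 (6.61%, against 11.4%). ND without HFD gave 1 (0.826%, against 2.41%), and FAD without ND gave 6 (4.96%, against 4.91%). For HFD without FAD, HFD without ND and ND without HFD, the family's share thus lay below that of all genes. With the full lists it lay above in each of these. In lists of equal length, HFD had 64 peaks with a median width of 669 bp. Their median score percentile was 71.7, still ranked in the full HFD list, and cutting the lowest scores raises it by construction. In these shortened lists 8 genes had a peak in HFD and none in FAD (6.61%, against 6.85% of all genes). A peak in HFD and none in ND was found there in 9 (7.44%, against 5.82%). There 69.9% of FAD peaks overlapped one of HFD, 73.4% of HFD peaks one of FAD and 79.7% of HFD peaks one of ND. A reciprocal overlap of 50% left 69.9% of FAD peaks and 74.2% of ND peaks shared with HFD. With absence required over 5000 bp around a window, ND without HFD gave 2 genes and ND without FAD gave 3. The others gave 5 for FAD without HFD, 14 for HFD without FAD, 16 for HFD without ND and 8 for FAD without ND. The share of all genes was not computed under this stricter absence, so these counts cannot be set against it. Beside genes of like length, a choice made after seeing the data, the density ratio was 0.365 in FAD, 0.327 in HFD and 0.297 in ND. The density of the pseudogenes also moved, as given with them. Where a count moved, the shorter lists or the stricter absence hold fewer peaks by construction.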

Other observations

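Genes outside the rule gave these values. Vmn2r121, the family's gene on the X chromosome, had no peak in FAD, 1 in HFD with a score of 103 and 1 in ND with a score of 89.0. The 124 autosomal Vmn2r records annotated as pseudogene, read with the same windows over 2.19 Mb, had 39.7 peaks per Mb in FAD (31.8 to 48.9), 44.2 in HFD (35.9 to 53.9) and 39.2 in ND (31.4 to 48.4). Long records carried many of these peaks, and Vmn2r-ps16, Vmn2r-ps17 and Vmn2r-ps23 together held 36 of 87 in FAD, 46 of 97 in HFD and 40 of 86 in ND. Without these 3 pseudogenes the density was 29.5 in FAD (22.0 to 38.8), 29.5 in HFD (22.0 to 38.8) and 26.6 in ND (19.5 to 35.5), intervals that overlap those of the Vmn2r genes in every library. A peak was found in 35 pseudogenes in FAD, 28.2%, and in 31 in HFD and 31 in ND, 25.0% each. The shares were 37.2%, 47.1% and 32.2% for Vmn2r genes and 64.3%, 74.0% and 67.0% for all genes in FAD, HFD and ND. Many of the pseudogene records are short, so much of their windows is flank.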
